A study of Oryza sativa with 6 samples.

Results

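The 3 miRNA libraries of P15, a rice line that carries the brown planthopper (BPH) resistance gene BPH15 by introgression, were compared with the 3 libraries of PC, its susceptible recipient line 9311, over 0, 6 and 48 h of BPH feeding. All 6 libraries of the series entered the comparison, and each P15 library was set against the PC library of its own time point. The deposited table listed 1898 miRNA entries, and entries with the same mature sequence were taken once, which left 1684 distinct sequences. Of these, 337 were known rice miRNAs, 733 matched miRNAs of other plants and 614 were predicted from the reads. A minimum of reads was passed by 380 sequences (169 known, 107 of other plants, 104 predicted), and only these were tested. Of the 1304 others, 825 had fewer than 10 reads over the 6 libraries, and the highest had 81.

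Each library was made from 30 plants pooled, so a library is 1 sample of its line and time point and the plants within it are not separate replicates. The 0 h plants of both lines carried no insects, and plants infested for 6 or 48 h carried 8 insects per seedling. The labels describe leaf sheath of plants of 3 weeks at the 4-leaf stage, whereas the study's methods describe stems of seedlings of 2 weeks with 2 leaves, and the tissue and age could not be settled from these sources. P15 is 1 introgression line, so a difference between P15 and PC can belong to any introgressed segment as well as to BPH15, and these cannot be told apart here. The replicates of a line differed in time of feeding. The p-values rest on the spread of the line difference between the 3 time points, which the test draws toward a spread shared by all tested sequences.

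Plant miRNAs are cut from hairpin precursors, loaded into an Argonaute protein and guide the cleavage or the silencing of mRNAs with a nearly complementary site. Most are short and start with U, while a longer class of rice miRNAs is made by another Dicer-like enzyme and can direct DNA methylation through another Argonaute. Members of a family often differ by a base or so, and near-identical members can share or split reads. In total RNA, fewer cells with a miRNA and less miRNA per cell cannot be told apart.

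The totals behind the deposited TPM (read count scaled to the library total) were 1078716 to 1644065 reads in P15 and 1258734 to 1343912 in PC. A count of 0 allowed up to 3 reads, or 1.82 to 2.78 TPM depending on the library, and these limits and the 95% intervals below cover counting error only. P15-6 stood apart in composition. Its TMM scaling factor was 0.835, against 0.993 to 1.09 in the other libraries. miR2118 and miR2275, which trigger phased small RNAs in panicles, summed to 120 to 149 reads in P15 and 139 to 146 in PC. The ratio of miR156 to miR172, which falls as a shoot ages, was 517, 657 and 246 at 0, 6 and 48 h in P15, and 506, 293 and 442 in PC, with no order between the lines that held at every time point.

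Of the 380 sequences tested, 5 (1.32%) differed between the lines at an adjusted p under 0.05 (edgeR quasi-likelihood test with time point as a block, Benjamini-Hochberg adjustment). Higher in P15 were 4 (1.05%), namely miR1862a, miR1861b, m0309-3p and miR531a, and lower was 1 (0.263%), m0092-5p. No role is given here for the predicted miRNAs m0309-3p and m0092-5p. The mature sequences of the 5 are printed because they carry the clearest line difference, 5′ to 3′ as the table gives them with T for U, with the seed (bases 2 to 8) in capitals.
miR1862a: aCGAGGTTggtttattttgggacg
miR1861b: cGATCTTGaggcaggaactgag
m0309-3p: aATCGGAAaagatttggtacc
miR531a: cTCGCCGGggctgcgtgccgccat
m0092-5p: aATTACCGccgtcatccctgt

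None of these 5 sequences starts with U, whereas 200 of the 380 sequences tested do. miR1862a and miR531a were 24 nt long, miR1861b 22 nt and both predicted sequences 21 nt. The sequence of miR1862a also stood for miR1862b and miR1862c, that of miR1861b for miR1861f, miR1861i and miR1861l, and that of miR531a for miR531c. Reads of such copies cannot be assigned to a locus.

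miR1862a had 533, 932 and 369 reads at 0, 6 and 48 h in P15, against 26, 11 and 26 reads in PC. These were 374, 567 and 342 TPM in P15 and 19.3, 8.74 and 20.3 TPM in PC. The lowest P15 library lay far above the highest PC library, before feeding as well as after it. The TPM ratio of P15 over PC was 19.3 (95% interval 13.0 to 29.9) at 0 h, 64.9 (36.1 to 130) at 6 h and 16.9 (11.3 to 26.2) at 48 h. The log2 fold change over the 3 time points was 4.79 ± 0.42 (SE derived from the test statistic, n = 3 libraries a line, edgeR adjusted p = 0.00457).

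miR1861b had 206, 195 and 126 reads in P15, against 22, 10 and 24 reads in PC. The groups did not overlap, and the TPM ratio was 8.82 (5.67 to 14.4) at 0 h, 14.9 (7.95 to 31.6) at 6 h and 6.25 (4.01 to 10.1) at 48 h. The log2 fold change was 3.26 ± 0.31 (edgeR adjusted p = 0.00457). For both sequences the ratio was largest at 6 h, where PC had its lowest count, and whether the ratio differed between time points was not tested, since each line had 1 library per time point.

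m0309-3p had 39, 34 and 36 reads in P15, against 0 reads in every PC library. Its P15 level was 27.3, 20.7 and 33.4 TPM, at least 12.3-fold higher than PC at 0 h, 8.68-fold at 6 h and 14.3-fold at 48 h, each bound taken against 3 reads in the PC library of that time point. Its edgeR adjusted p was 0.0111. miR531a showed the same kind of pattern at lower counts, with 23, 14 and 16 reads in P15 and 0, 0 and 1 reads in PC. It was at least 7.23-fold higher in P15 at 0 h and 3.57-fold at 6 h, and at 48 h it had 14.8 TPM in P15 and 0.779 TPM in PC, a ratio with an interval of 2.96 to 798 (edgeR adjusted p = 0.0123 over the 3 time points).

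m0092-5p ran the other way, with 1, 0 and 0 reads in P15, against 26, 17 and 30 reads in PC. Its level in PC was 19.3, 13.5 and 23.4 TPM. It was at least 7.40-fold lower in P15 at 6 h and 8.41-fold at 48 h, and at 0 h PC exceeded P15 27.6-fold with an interval of 4.53 to 1131 (edgeR adjusted p = 0.00742). The fitted fold changes of m0309-3p, miR531a and m0092-5p depend on how zeros are handled and are not given as values. These 3 sequences passed the minimum of reads only through the line in which they were high. Their calls are thus not on the same footing as those of miR1862a and miR1861b, which had reads in all 6 libraries.

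miR1862a and miR1861b passed the threshold with every 1 of the 6 libraries left out in turn, at adjusted p of at most 0.00699 and 0.0300. Without P15-6, m0309-3p and m0092-5p missed it (adjusted p = 0.0706 for both) and so did miR531a (0.207), which also missed it without P15-48 (0.0543). With time point as a block, leaving out either library of a time point removes the same line difference. Yet without PC-6 all 3 passed (edgeR adjusted p = 6.9e-19, 3.0e-09 and 4.1e-07), and without PC-48 miR531a passed (1.1e-07). The prior degrees of freedom of the shared spread were 3.71 without P15-6 and infinite without PC-6. The misses thus do not single out a P15 library, and their cause was not tested. The count of 5 became 2 without P15-6, 8 without P15-0, 13 without PC-6 and 20 without PC-48. The plot of levels by library shows the separation of the 5 sequences from the next 5 in order of p.

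**Figure D1:**
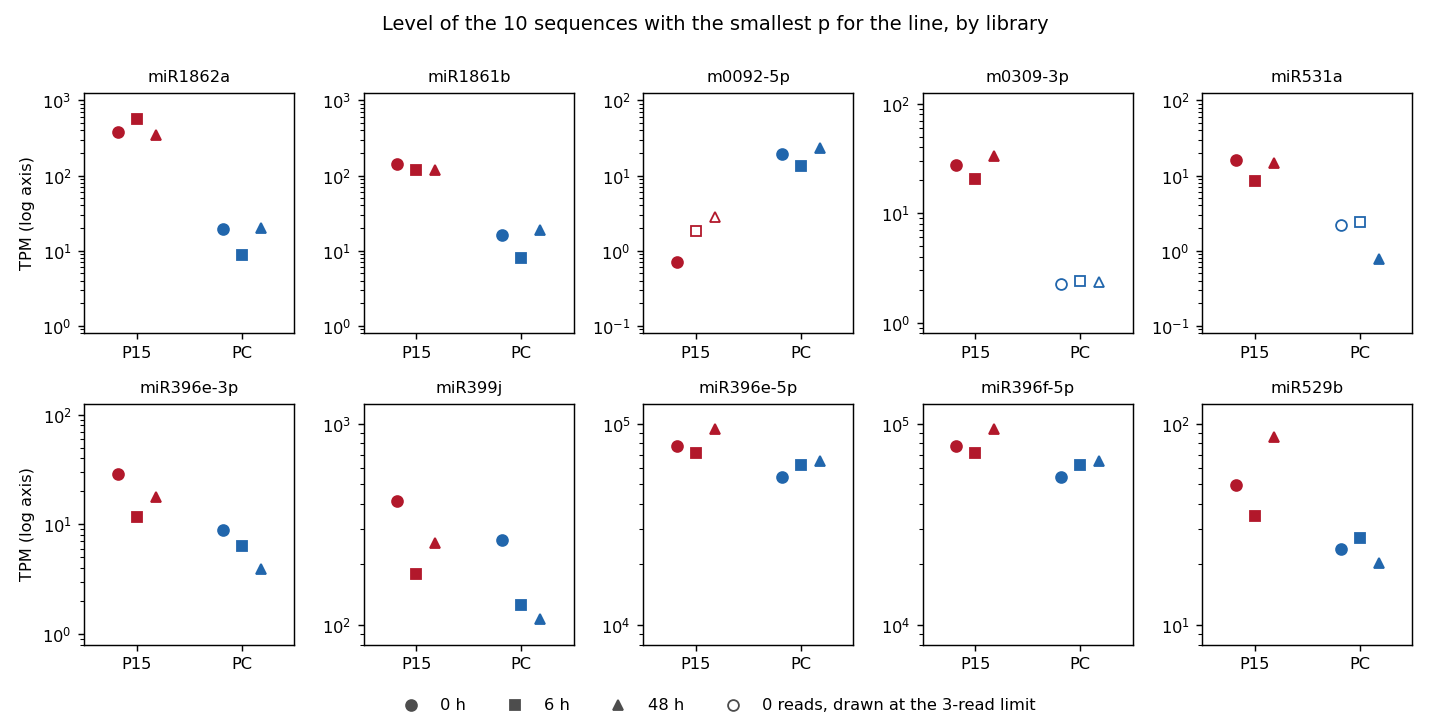
TPM on a log axis for the 10 sequences with the smallest p for the line, 1 panel each, P15 libraries in red on the left and PC libraries in blue on the right, with the marker giving the time point and open markers counts of 0 drawn at the 3-read limit. miR1862a lies between 342 and 567 TPM in P15 and between 8.74 and 20.3 TPM in PC, and miR399j is the only sequence shown whose P15 and PC levels overlap.

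**Figure D2:**
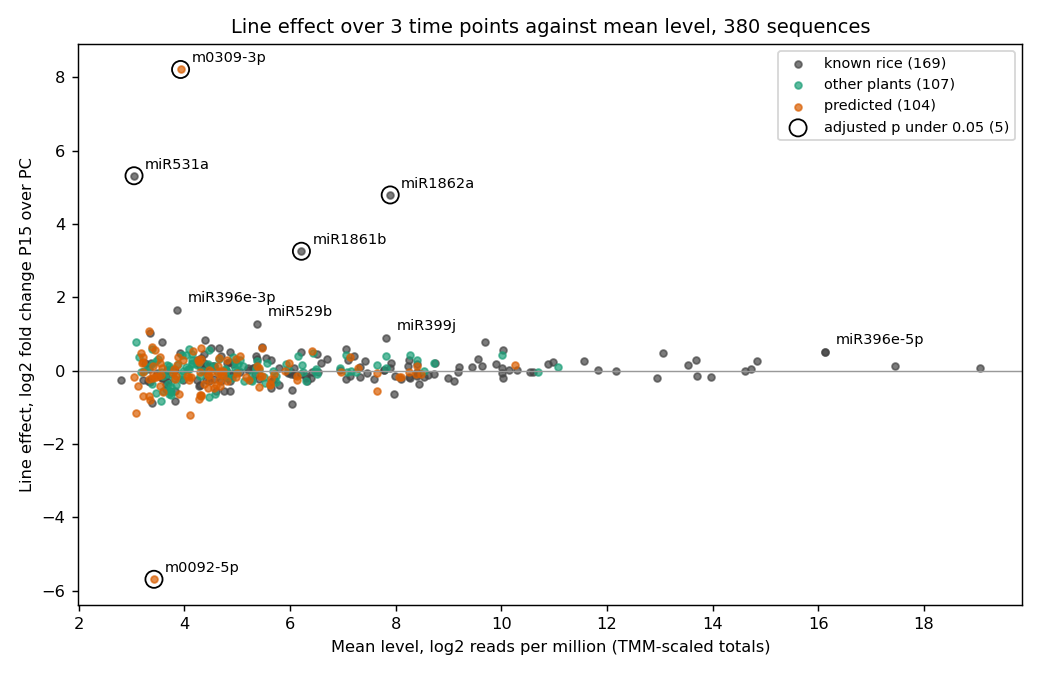
Line effect (log2 fold change, P15 over PC) against mean level (log2 of reads scaled to TMM totals) for the 380 sequences tested, coloured by entry class, with a ring around the 5 at an adjusted p under 0.05. The ringed sequences lie apart from the rest, and the fitted values of m0309-3p, miR531a and m0092-5p at the edges come from zero or near-zero counts in 1 line and are not measured folds.

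Close relatives of the called sequences were examined next. miR1862d, miR1861h and miR1861e are shown because they differ from the called members at a few bases, and miR531b because it is contained in miR531a.
miR1862d: aCTAGGTTtgtttattttgggacg
miR1861h: cGGTCTTGaggcaggaactgag
miR1861e: cGGTCTTGtggcaagaactgag
miR531b: cTCGCCGGggctgcgtgccg

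miR1862d differs from miR1862a by G3T and G9T, with positions counted from the 5′ end of the called sequence and its base given first, and so does not have the same seed. It had 1772, 1676 and 1545 reads in P15, against 1835, 1676 and 1560 reads in PC. The lines overlapped, and the log2 fold change was 0.02 (edgeR adjusted p = 0.985). miR1862e likewise had 204, 192 and 192 reads in P15, against 243, 219 and 217 in PC, with a log2 fold change of -0.17. In PC, miR1862a was less abundant than both of these, at 26 reads or fewer, while in P15 it reached 369 to 932 reads, above miR1862e but below miR1862d in every library.

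miR1861h differs from miR1861b by A3G alone. It had 3, 2 and 3 reads in P15, against 5, 9 and 14 reads in PC, too few to be tested, and its TPM ratio of P15 over PC was 0.170 (0.018 to 0.822) at 6 h and 0.255 (0.047 to 0.913) at 48 h. miR1861e, which differs from miR1861b by A3G, A9T and G14A, had 41, 29 and 19 reads in P15, against 60, 35 and 38 reads in PC, and its log2 fold change was -0.56 (edgeR adjusted p = 0.404). In both, the P15 level was below the PC level at all time points, the opposite side to miR1861b. For miR1861h at 0 h this rested on 3 reads against 5, too few to tell the lines apart, and for miR1861e it did not pass the test. The remaining members had too few reads to be tested. miR1861g had 5, 4 and 2 reads in P15, against 5, 5 and 1 in PC. miR1861c had 3, 1 and 0 reads in P15, against 5, 1 and 1 in PC, and miR1861a 0 in P15, against 1, 0 and 3 in PC. No opposite side for the family as a whole can be read from these.

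miR531b is the 20-nt start of miR531a and may count reads of it. It had 16, 4 and 11 reads in P15, against 0, 0 and 1 reads in PC, which was the pattern of miR531a, and it was not tested because it was below the minimum of reads. The match of miR531 from other plants, MIR531-x, had 3, 2 and 0 reads in P15 and 0 in all PC libraries. No sequence of the miR531 family had more than 1 read in a PC library.

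**Figure D3:**
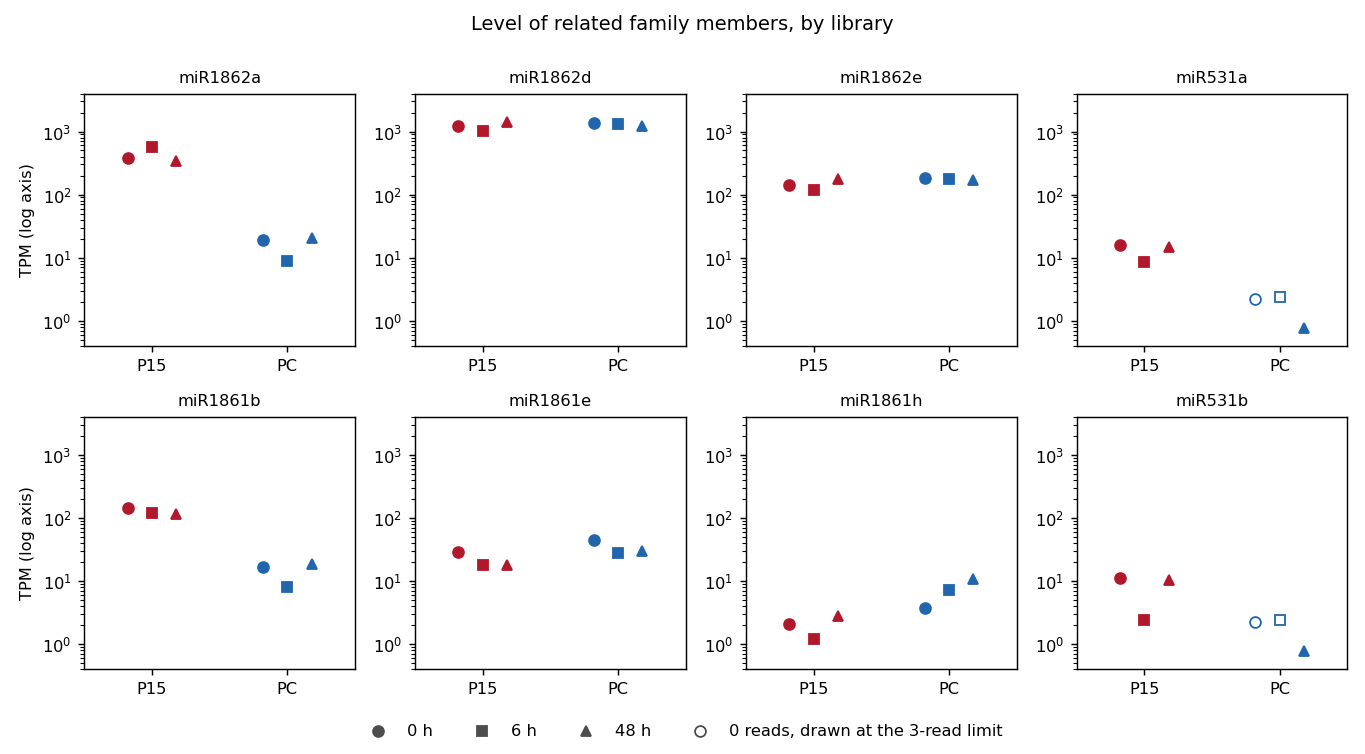
TPM on a shared log axis for members of the miR1862, miR1861 and miR531 families, P15 in red on the left and PC in blue on the right, with markers for time points and open markers for counts of 0 at the 3-read limit. miR1862a, miR1861b, miR531a and miR531b are high in P15, while miR1862d lies between 1019 and 1432 TPM in P15 and between 1216 and 1365 TPM in PC.

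Below the threshold, the next 5 sequences in order of p were all known miRNAs with higher levels in P15, and 3 of them belonged to miR396, which targets growth-regulating factor (GRF) mRNAs. miR396e-3p, the opposite strand of a miR396 hairpin, and the guide sequences miR396e-5p, miR399j and miR529b are shown since the rest of the line comparison turns on them.
miR396e-3p: aTGGTTCAagaaagcccatggaaa
miR396e-5p: tCCACAGGctttcttgaactg
miR399j: tGCCAAAGgagagttgcccta
miR529b: aGAAGAGAgagagtacagctt

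miR396e-3p had 41, 19 and 19 reads in P15, against 12, 8 and 5 reads in PC. The P15 levels of 28.8, 11.6 and 17.6 TPM did not overlap the PC levels of 8.93, 6.36 and 3.90 TPM, and the log2 fold change was 1.66 ± 0.30 (edgeR adjusted p = 0.0651). miR396e-5p was among the most abundant sequences, with 109967, 117295 and 101537 reads in P15, against 73260, 78245 and 83433 reads in PC. Its levels of 77113, 71345 and 94128 TPM in P15 and 54512, 62162 and 65015 TPM in PC did not overlap. The TPM ratio was 1.41 at 0 h, 1.15 at 6 h and 1.45 at 48 h, and the log2 fold change of 0.52 ± 0.11 did not pass the test (edgeR adjusted p = 0.0995). miR396f-5p overlaps miR396e-5p in sequence and had nearly the same counts in every library, so it is not a separate measurement.

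miR396g, which stands also for miR396d and miR396h and differs from miR396e-5p by T20G, had 1701, 2033 and 1236 reads in P15, against 1162, 1080 and 1115 reads in PC. Its log2 fold change was 0.58 ± 0.15 (edgeR adjusted p = 0.224), and all 3 P15 levels lay above the PC levels. Of the 9 miR396 sequences, 8 were tested. None was called, all 8 had a positive log2 fold change, and 5 had all P15 levels above all PC levels, against 28 of the 380 sequences tested (7.37%). Their median log2 fold change was 0.41, against -0.01 over all 380. The sequences share a family and some share reads, so the 8 are not 8 separate observations. Among the 5 without overlap, miR396e-5p and miR396f-5p are 1 measurement. miR396c-5p lay on the PC side at 48 h, with log2 differences of TMM-scaled levels of 0.08, 0.83 and -0.39 at 0, 6 and 48 h. With the library totals in place of TMM the median was 0.29, all 8 were still positive and 4 did not overlap.

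miR399, which targets the phosphate-homeostasis regulator PHO2, and miR827, which targets SPX-domain phosphate transporters, formed the list with the highest median of those with at least 3 tested members. All 4 tested members had a positive log2 fold change, with a median of 0.70, and none was called. miR399j had 586, 294 and 275 reads in P15, against 357, 158 and 138 reads in PC. Both lines had their highest level at 0 h, so P15 exceeded PC at each time point although the levels overlapped between times. The TPM ratio was 1.55 at 0 h, 1.42 at 6 h and 2.37 at 48 h (log2 fold change 0.90 ± 0.17, edgeR adjusted p = 0.0670). miR399d, which differs from miR399j by A21G, had 2001, 1357 and 766 reads in P15, against 1609, 587 and 467 reads in PC (log2 fold change 0.78 ± 0.19, edgeR adjusted p = 0.174). miR399a had 60, 32 and 23 reads in P15, against 42, 16 and 19 reads in PC. These 3 miR399 members share a seed, and miR399d and miR399a differ from miR399j by 1 and 2 bases. They may share reads and are not 3 separate observations. miR827 had a log2 fold change of 0.06, with log2 differences of TMM-scaled levels of -0.16, -0.45 and 0.81 at 0, 6 and 48 h. With the library totals 3 of the 4 were positive and the median was 0.59.

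miR529b, which targets SPL transcription factors, had 71, 57 and 93 reads in P15, against 32, 34 and 26 reads in PC. The levels did not overlap, but at 6 h the TPM ratio of 1.28 (0.825 to 2.02) did not clear counting error. This depends on the scale, since the log2 difference of TMM-scaled levels at 6 h was 0.67. No counting interval was taken on the TMM scale. The log2 fold change was 1.28 ± 0.29 (edgeR adjusted p = 0.131). Its near neighbour among the other-plant matches, MIR529-x (T20C and T21A), had 313, 318 and 362 reads in P15, against 220, 279 and 277 reads in PC, with a log2 fold change of 0.40. The abundant SPL regulator miR156d had 48076, 42011 and 22096 reads in P15, against 46000, 26642 and 34912 reads in PC, a log2 fold change of 0.06. Over the SPL list of miR156, miR529 and miR535, 4 of 9 tested sequences were positive and 5 negative.

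Whether these sequences passed the threshold depended on the settings. miR396e-3p passed it under 8 of the 11 alternatives to scaling, filter, copies and tool for which it could be fitted, and its adjusted p ran between 2.53e-04 and 0.213. miR399j passed it under 7 and miR529b under 5 of 12, while miR396e-5p passed under 1, the fit without a filter. With 1 library left out, miR396e-3p passed in 2, miR399j in 3, miR529b in 4 and miR396e-5p in 1 of 6 fits. Their direction was the same throughout.

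Of the other lists, none had a called member apart from the miR531, miR1861 and miR1862 families. miR159 and miR319, which target GAMYB and TCP factors, had 4 tested sequences with a median of 0.21, of which miR159a.1 and miR319b did not overlap between the lines. miR159a.1 had 12759, 17136 and 9752 reads in P15, against 10621, 7949 and 10046 reads in PC, so that its TPM ratio was largest at 6 h (1.65, against 1.13 at 0 h and 1.15 at 48 h). With the clean reads as library totals neither of them was free of overlap.

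The copper list (miR397, miR398, miR408 and miR528, which target copper proteins such as superoxide dismutase) had 4 of 5 tested sequences negative and a median of -0.29. Its largest member by effect, miR398b, had 18, 25 and 28 reads in P15, against 18, 16 and 96 reads in PC, and PC-48 stood above the other 5 libraries. Over all 8 sequences of the copper list, the summed level was 142, 77.9 and 145 TPM at 0, 6 and 48 h in P15. In PC it was 107, 113 and 253 TPM, so P15 was higher before feeding and lower after it. miR169, which targets NF-YA factors, had 8 of 11 sequences negative with a median of -0.13 and none free of overlap. Its side was not the same at all time points. The summed miR169 level was 1166, 533 and 875 TPM at 0, 6 and 48 h in P15, against 1032, 1047 and 923 TPM in PC. P15 was thus higher before feeding, and the widest gap, at 6 h, lay on the PC side. miR166, which targets HD-ZIP III factors and held most reads of every library, had 9 of 16 sequences positive with a median of 0.04. The medians of the remaining lists with at least 3 tested sequences were 0.12 for miR171 (GRAS factors, 6 sequences), 0.08 for the triggers of NBS-LRR mRNA cleavage (3 sequences), -0.05 for miR162 and miR168 (DCL1 and AGO1, 4 sequences), -0.10 for miR812 (5 sequences) and -0.12 for miR444 (MADS-box factors, 6 sequences), all with overlapping levels. miR395g, the only tested sequence of the sulfate list, and miR1432-5p, a regulator of an EF-hand protein, had log2 fold changes of 0.61 and 0.58 and were not called. At 48 h miR1432-5p was on the other side, with 127 TPM in P15 against 151 TPM in PC. miR172, miR164 and miR1425 had 2 tested sequences each, with log2 fold changes between -0.25 and 0.14.

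Among the auxin regulators (miR160, miR167, miR390 and miR393), 7 of 16 sequences were positive and 9 negative. The clearest was miR167h-3p, the opposite strand of a miR167 hairpin, with 235, 241 and 290 reads in P15, against 415, 417 and 380 reads in PC. Its P15 levels lay below all PC levels (165, 147 and 269 TPM in P15, against 309, 331 and 296 TPM in PC), and the log2 fold change was -0.63 ± 0.19 (edgeR adjusted p = 0.317). miR167a-3p had 80, 36 and 58 reads in P15, against 172, 108 and 63 reads in PC, and the guide miR167a-5p 598, 311 and 308 reads in P15, against 683, 395 and 494 in PC. None of these passed the test.

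**Figure D4:**
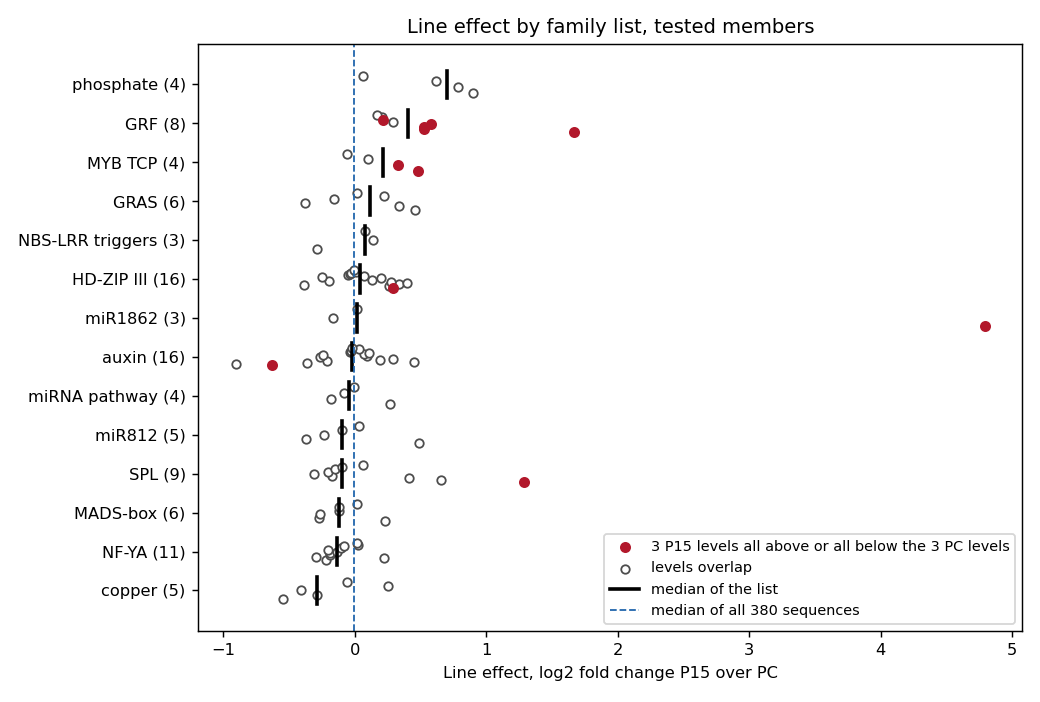
Log2 fold change (P15 over PC) of the tested known sequences in each family list with at least 3 of them, with the number tested in brackets; filled points are sequences whose 3 P15 levels lie all above or all below the 3 PC levels, black bars are list medians and the dashed line is the median of all 380 sequences. The phosphate and GRF lists have medians of 0.70 and 0.41, and the called miR1862a stands alone at 4.79.

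Over all 380 sequences, 184 were higher and 196 lower in P15. All 3 P15 levels lay above all 3 PC levels for 28 (7.37%), and below them for 20 (5.26%), on the TMM scale. With the library totals this split was 17 above and 32 below, and with the clean reads 17 and 24, so the balance of directions among weak differences followed the scaling. The median of all sequences shifted to -0.12 with the library totals. At an unadjusted p under 0.05 there were 41 sequences, 24 higher and 17 lower in P15.

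Predicted miRNAs leaned to the PC side, with 36 of 104 higher and 68 lower in P15 and a median of -0.10, against 87 higher and 82 lower among known and 61 higher and 46 lower among other-plant sequences. The clearest predicted one below the threshold was m0266-5p, with 18, 13 and 7 reads in P15, against 28, 35 and 26 reads in PC (log2 fold change -1.21 ± 0.29, edgeR adjusted p = 0.174). No other-plant sequence was called. The smallest p in that class belonged to MIR168-x, a match to miR168 (log2 fold change 0.49, edgeR adjusted p = 0.404), and MIR1436-y had the same adjusted p with a log2 fold change of -0.72.

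The line difference was compared between time points to see how far it was the same in the 3 pairs of libraries. Over all 380 sequences, Pearson's r of the log2 difference of P15 minus PC was 0.66 between 0 and 6 h, 0.56 between 0 and 48 h and 0.48 between 6 and 48 h. Without the 5 called sequences r was 0.30, 0.15 and 0.03, and over the 164 of these with a mean of at least 50 reads it was 0.37, 0.17 and 0.06. Spearman's rho was 0.29, 0.14 and 0.06 over all 380 sequences and 0.26, 0.11 and 0.02 without the 5. A call needs a line difference that is alike at the time points, so part of the fall in r follows from how the 5 were chosen. These are descriptions across sequences, which are not independent replicates and share libraries and scaling. Of the 380 sequences, 62 were higher and 61 lower in P15 at every time point.

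**Figure D5:**
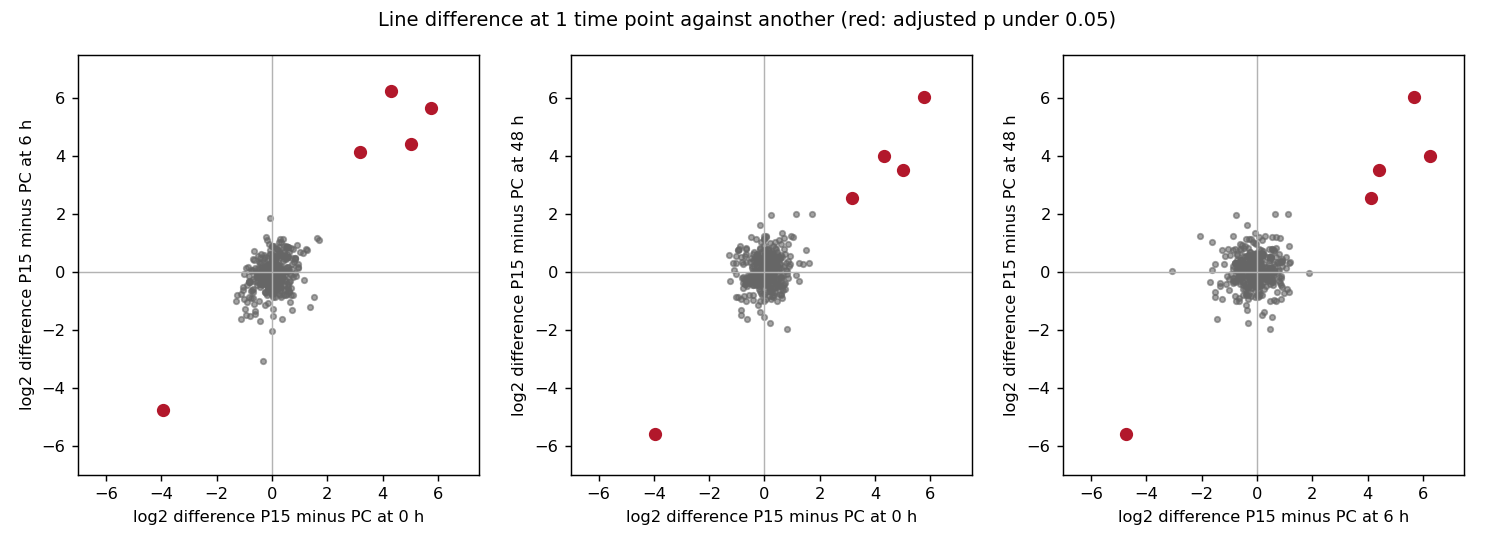
Log2 difference P15 minus PC (of TMM-scaled levels plus 0.5) of 380 sequences at 1 time point against another, in 3 panels, with the 5 sequences at an adjusted p under 0.05 in red. The called sequences hold their side in all panels, and the others form a cloud around 0 with r of 0.30, 0.15 and 0.03.

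The 10 most abundant known sequences had log2 fold changes between -0.18 for miR168a-3p and 0.52 for miR396e-5p. None was called. miR396e-5p, miR396f-5p and miR166i-3p had all P15 levels above all PC levels.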

How the data were processed

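Small RNA libraries of P15 and PC at 0, 6 and 48 h were used, 1 per line and time point. Reads under 18 nt, low-quality reads and structural RNAs (GenBank 209.0, Rfam 11.0) had been removed by the study, as had tags on exons, introns and repeats of the rice genome, and the rest matched to miRBase release 21. Predicted miRNAs came from perfect genome matches and Mireap hairpins. For matches to known miRNAs, no source used here gives an aligner or a mismatch limit. The authors deposited for each entry a read count and a TPM score, which is the count scaled to a library total, with 0.01 TPM written for 0 reads. Totals were recovered from count and TPM. Sums of distinct sequences exceeded them by 1.03 to 1.11 times, since reads can match several entries.

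Entries with 1 mature sequence were represented by the entry with the most reads. Of the 127 sequences with more than 1 entry, 74 had entries with differing deposited counts, so the choice of entry can alter the counts. The counts were fitted with edgeR 4.0.16 (quasi-likelihood, TMM, default expression filter grouped by line, time point as a factor, 2 residual degrees of freedom) in R 4.3.3, and p-values adjusted over 380 sequences. The variance of each sequence was moderated across sequences, with 4.53 prior degrees of freedom in the main fit. Each ± value is the absolute log2 fold change divided by the square root of the test's F statistic. It therefore carries this moderated variance and is not a plain SE of 3 libraries. DESeq2 1.42.0 was an alternative. Deviations of P15 and PC libraries of the same time correlated (r = 0.43, 0.16 and 0.32 at 0, 6 and 48 h). Simulated data (397 sequences in the step) gave 91 of 92 called at 4-fold, 63 of 82 at 2-fold and 4 of 223 unchanged. The simulation gave all sequences the same dispersion (spread between libraries), no time effect and a line effect that was equal at all time points. Only sequences above a minimum of reads were changed in it. The real counts were not held to these settings, so these rates need not apply to them. Named sequences are the called ones, the next 5 by p, 3 per class by p, the 10 most abundant known ones, the miR531, miR1861 and miR1862 members and at most 3 per family list. For miR156d, miR396c-5p, miR396g, miR827, the neighbours and the sequences read in 1 line, the choice came after seeing the values. The members, lists and this rule were chosen with earlier results of these data known. Exact binomial intervals are at 95%. miRNA coordinates were not used here.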

Additional observations from a re-analysis of the deposited data

Results flagged for a closer look

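Of the 69 named sequences, 14 had TPM ratios of P15 over PC on opposite sides of 1 at different time points, with a counting interval clear of 1 on each side, as had 52 of all 1684 sequences. The difference between time points was not tested, since each line had 1 library per time point, and at high counts such an interval is narrow because it covers counting error only. The ratio was highest at 48 h for miR1862d (0.910, 0.766 and 1.18 at 0, 6 and 48 h, the highest lower bound being 1.10), miR166m (1.05, 0.913 and 1.43, bound 1.36), miR166g-3p (0.969, 0.911 and 1.18, bound 1.17), miR1425-5p (0.938, 0.508 and 1.21, bound 1.19), the NAC regulator miR164b (0.931, 0.552 and 1.24, bound 1.11) and the AP2 regulator miR172d-3p (0.974, 0.538 and 1.38, highest lower bound 1.00). It was highest at 6 h for miR159f (0.836, 1.72 and 0.685, bound 1.55), the AGO1 regulator miR168a-5p (1.07, 1.40 and 0.925, bound 1.38), miR156d (0.985, 1.21 and 0.753, bound 1.19) and miR166a-3p (0.951, 1.01 and 0.948, bound 1.00). It was highest at 0 h for miR168a-3p (1.18, 0.562 and 0.823, bound 1.16), miR172d-5p (1.45, 0.496 and 1.16, highest lower bound 1.03), miR444b.1 (1.30, 1.18 and 0.820, bound 1.23) and miR166l-3p (1.04, 1.00 and 0.749, bound 1.03). On the TMM scale only the ratios themselves were compared, without a counting interval. By these, 12 of the 14 were still on both sides of 1, while miR166m (1.10, 1.14 and 1.37) and miR166g-3p (1.02, 1.14 and 1.13) were higher in P15 at every time point.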

How the results depend on the processing

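The called count of 5 of 380 tested (4 higher, 1 lower in P15) became 8 (7 higher) with median-of-ratios factors and 8 (7 higher) with clean reads as totals. It was 9 (8 higher) with robust empirical Bayes, and these 3 settings also tested 380. Without a filter it was 20 of 1684 tested (14 higher, 6 lower), and at a mean of at least 50 reads 2 of 166 (2 higher, 0 lower). With every entry kept it was 15 of 508 entries (13 higher, 2 lower), where copies of 1 sequence count separately. With the fewest reads per sequence, with contained sequences taken once and with DESeq2 it was 7, 6 and 7 (6, 5 and 6 higher), of 378, 362 and 380 tested. Known entries alone gave 4 of 169 tested (4 higher, 0 lower). With no replicate block it was 5, while the sequences at an unadjusted p under 0.05 numbered 27 in place of 41. Leaving out 1 library gave 2 to 20 calls of 390 to 405 tested, 2 to 16 higher and 0 to 4 lower in P15. The sequences with all P15 levels above all PC levels numbered 17 with library totals, 17 with clean reads, 61 without a filter, 9 at a mean of at least 50 reads and 9 for known entries, and 41 to 59 with 1 library left out. Those below numbered 32 with library totals, 80 without a filter, 12 at a mean of at least 50 reads, 35 with every entry kept and 8 for known entries, and 33 to 58 with 1 library left out, where 3 levels are set against fewer. Both sets of counts are out of the number tested under each setting, which was 380 with library totals and with clean reads. miR1862d changed sign, at -0.10 with library totals, -0.0042 with clean reads, -0.061 at a mean of at least 50 reads, -0.012 with every entry kept and -0.034 for known entries, and between -0.043 and 0.082 with 1 library left out. The causes were not tested. Of the untested sequences 825 had fewer than 10 reads, 1 library per line and time point leaves 2 residual degrees of freedom, and the simulation missed some 2-fold changes.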

Other observations

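Among the 656 sequences with at least 10 reads in the 3 libraries of either line, 17 had 2 reads or fewer in the 3 libraries of the other line. They were picked after their values were seen and were given no test. Read in P15 were 6 and in PC 11, and 11 of the 17 were predicted miRNAs (3 in P15, 8 in PC). Besides m0309-3p, miR531a and m0092-5p, 14 were below the minimum of reads. m0196-3p had 13, 4 and 5 reads in P15, against 0, 0 and 1 in PC, and m0597-3p had 3, 6 and 5 reads in P15, against 0 in every PC library. miR398a, which targets copper superoxide dismutases, had 5, 4 and 4 reads in P15, against 1, 0 and 1 in PC. On the PC side, m0599-3p had 0 reads in every P15 library, against 6, 4 and 9 in PC, miR2873c 0 in P15, against 5, 5 and 1 in PC, and m0282-5p 0 in P15, against 3, 5 and 2 in PC.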
